A study of Mus musculus with 18 samples.

Results

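The genes described here are the 9 cytokine genes of the type 2 cluster on chromosome 11 (Il4, Il13, Il5, Il3 and Csf2) and of the IL-10 family cluster on chromosome 1 (Il10, Il19, Il20 and Il24), of 21938 protein-coding genes in the GENCODE vM21 annotation of mm10. The rule names the genes and uses no measured value, though they were picked with earlier results of these data known. Each gene was described over a window from 5 kb upstream of its body to 1 kb past its end, in which every H3K27me3 and H3K27ac peak was listed with its reads. Chromatin immunoprecipitation sequencing (ChIP-seq) of both histone marks was done in unstimulated bone marrow-derived macrophages (BMDM), which were grown from mouse bone marrow for 7 days in medium conditioned by L929 cells, a source of the growth factor M-CSF. The 18 samples came from 3 genotypes. WT mice were C57BL6 by label. mdx mice carried the Dmd mdx-4Cv mutation, which removes full-length dystrophin, the protein lost in Duchenne muscular dystrophy. mdxTLR4-/- mice (mTLR4 in the labels, strain Bl6/Bl10) carried a dystrophin mutation and also lacked TLR4, a receptor of innate immune cells. None of the groups was treated.

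H3K27me3 was measured with 2 ChIP and 2 input samples per genotype, and H3K27ac with 2 ChIP samples in WT, 2 in mdx, 1 in mdxTLR4-/- and 1 input. The labelled ages of the H3K27me3 ChIP samples were 12 to 13 weeks in WT, 14 to 15 weeks in mdx and 16 to 17 weeks in mdxTLR4-/-, and those of the H3K27ac ChIP samples were 19 to 20, 21 to 22 and 23 weeks, so that labelled age and genotype cannot be told apart. These labels rise by 1 week from each sample to the next across the series, from 6 to 23 weeks, and whether they are the ages of the mice was not tested. The study merged the replicates before calling peaks, which left 1 peak list per mark and genotype. No difference between genotypes could therefore be set against the spread between replicates, no test was run, and the intervals given below cover counting error only.

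H3K27me3 is deposited by a Polycomb repressive complex and is found over silent genes, often developmental or lineage-specific ones, while H3K27ac is found at active promoters and enhancers. Type 2 cytokines are made mainly by T helper 2 cells, innate lymphoid cells, mast cells, basophils and eosinophils, and their loci are kept silent in cells of most other lineages. IL-4 and IL-13 drive the alternative (M2) activation of macrophages, IL-5 is the growth factor of eosinophils, and IL-3 and GM-CSF (the product of Csf2) act on myeloid progenitors and macrophages. IL-10 is an anti-inflammatory cytokine that macrophages themselves produce, whereas its relatives IL-19, IL-20 and IL-24 act chiefly on epithelial cells.

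Of the 9 genes, 8 had a H3K27me3 peak in their window and at least 50% of the window under such peaks in every genotype, and only Il10 had none. By contrast Il10 was the only one of the 9 with a H3K27ac peak, again in every genotype. Among all protein-coding genes 38.4% had a H3K27me3 peak by the WT list, 41.3% by mdx and 39.0% by mdxTLR4-/-, and at least 50% of the window was covered in 16.6%, 16.3% and 14.9%. A H3K27ac peak lay in the window of 39.9%, 34.5% and 36.5% of genes. No window of the 9 held both marks, and few of all protein-coding genes did, 10.0% in WT, 9.20% in mdx and 8.92% in mdxTLR4-/-.

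The sequences that follow are shown because the results turn on them. The first 3 are the 250 bases before a transcription start, from the RefSeq promoter table (GRCm38.p6), which held 7 of the 9 genes and had no entry for Il10 or Il24. They are given 5′ to 3′ on the gene's own strand with each CG pair in capitals. The outermost Il4 start lay under a H3K27me3 peak only in mdxTLR4-/-, the Il19 start in both mutant genotypes but not in WT, and the Il13 start in all 3 genotypes. The fourth is the middle of an element upstream of Il10 that lay under a H3K27ac peak in all 3 genotypes, taken from the plus strand of the reference genome, with AGATAA, the core letters of a GATA motif, in capitals.
Il4 promoter, chr11:53618666-53618915, minus strand: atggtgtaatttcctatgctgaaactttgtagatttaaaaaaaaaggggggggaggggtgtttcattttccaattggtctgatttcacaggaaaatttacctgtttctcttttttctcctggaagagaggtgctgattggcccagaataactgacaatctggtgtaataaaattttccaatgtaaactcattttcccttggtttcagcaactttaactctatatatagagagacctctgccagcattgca
Il19 promoter, chr1:130940116-130940365, minus strand: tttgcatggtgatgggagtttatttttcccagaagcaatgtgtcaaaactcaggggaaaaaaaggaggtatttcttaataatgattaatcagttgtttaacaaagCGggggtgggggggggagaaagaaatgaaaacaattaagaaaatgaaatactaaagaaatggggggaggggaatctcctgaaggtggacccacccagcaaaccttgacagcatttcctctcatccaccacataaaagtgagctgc
Il13 promoter, chr11:53634703-53634952, minus strand: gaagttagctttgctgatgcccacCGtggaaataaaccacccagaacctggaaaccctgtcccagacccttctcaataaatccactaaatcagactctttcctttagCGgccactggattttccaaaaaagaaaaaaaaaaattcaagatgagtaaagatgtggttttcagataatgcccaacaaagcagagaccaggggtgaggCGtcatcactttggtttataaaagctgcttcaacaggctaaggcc
Il10 upstream element, chr1:131015751-131016050, plus strand: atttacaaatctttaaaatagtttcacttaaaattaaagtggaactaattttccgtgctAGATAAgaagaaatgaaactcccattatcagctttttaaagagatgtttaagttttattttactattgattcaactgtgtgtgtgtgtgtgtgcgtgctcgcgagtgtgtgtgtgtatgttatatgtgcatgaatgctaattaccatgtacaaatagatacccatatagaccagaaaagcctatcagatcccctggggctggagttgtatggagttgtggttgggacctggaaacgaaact
Polycomb marking is best known at promoters rich in CG pairs. Each of these promoters held fewer than the median promoter, from percentile 0 at Il4 to percentile 44.4 at Il3. The Il4 promoter held 0 CG pairs, Il19 held 1, Il5, Csf2 and Il20 held 2 each, Il13 held 3 and Il3 held 5, while the median over 32851 promoters of the same length was 6 (quartiles 2 and 16). A second Il4 start in the RefSeq table, 1331 bp inside the gene, had 1 CG pair before it and lay under a H3K27me3 peak in WT and mdxTLR4-/-, and peaks took 62 of the 250 bases before it in the WT list, 0 in mdx and 250 in mdxTLR4-/-. The letters AGATAA, searched on both strands, stood 1 time in the 300 bases shown from the Il10 element and occurred in 11.2% of all promoter stretches of 300 bases. Other patterns were searched as well. TGANTCA (N for any base) stood there 1 time and GGAAA 2 times, and they occurred in 7.81% and 61.3% of such stretches. TATAAA and TTCNNNGAA stood there 0 times. Binding of a factor to any of these was not tested. In the 250 bases before the start, AGATAA occurred 1 time at each of Il13, Il3 and Csf2, and in 9.99% of all promoters.

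The H3K27me3 lists held 28143 peaks with 8331331 reads in WT, 41780 peaks with 10199918 reads in mdx and 36488 peaks with 7358418 reads in mdxTLR4-/-. The H3K27ac lists were much thinner, with 274020, 191629 and 168487 reads, and the median peak of each held 10, 10 and 8 reads (fewest 5). All 8 macrophage marker genes examined (among them Lyz2 and Spi1) had a H3K27ac peak and none had a H3K27me3 peak in any genotype, whereas all 6 T cell markers (among them Cd3e, with 100% of its window covered) had H3K27me3. A H3K27ac peak lay at 1 T cell marker in each genotype, Cd4 in WT (0.748% of the window) and Cd3d in mdx (17.3%) and mdxTLR4-/- (10.4%). Gata3, the factor that opens the type 2 locus in T helper 2 cells, had 73.5%, 71.4% and 66.8% of its window under H3K27me3 in WT, mdx and mdxTLR4-/- and no H3K27ac. Of the 5 mast cell and eosinophil markers, 2 had H3K27me3 in WT, 3 in mdx and 3 in mdxTLR4-/-, and none had H3K27ac. Of the 5 muscle markers, 4 had H3K27me3 in each genotype, and 1, 0 and 0 had H3K27ac in WT, mdx and mdxTLR4-/-. Among all protein-coding genes 38.4%, 41.3% and 39.0% had H3K27me3 in WT, mdx and mdxTLR4-/-. The shares with H3K27ac were 39.9%, 34.5% and 36.5%.

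**Figure D1:**
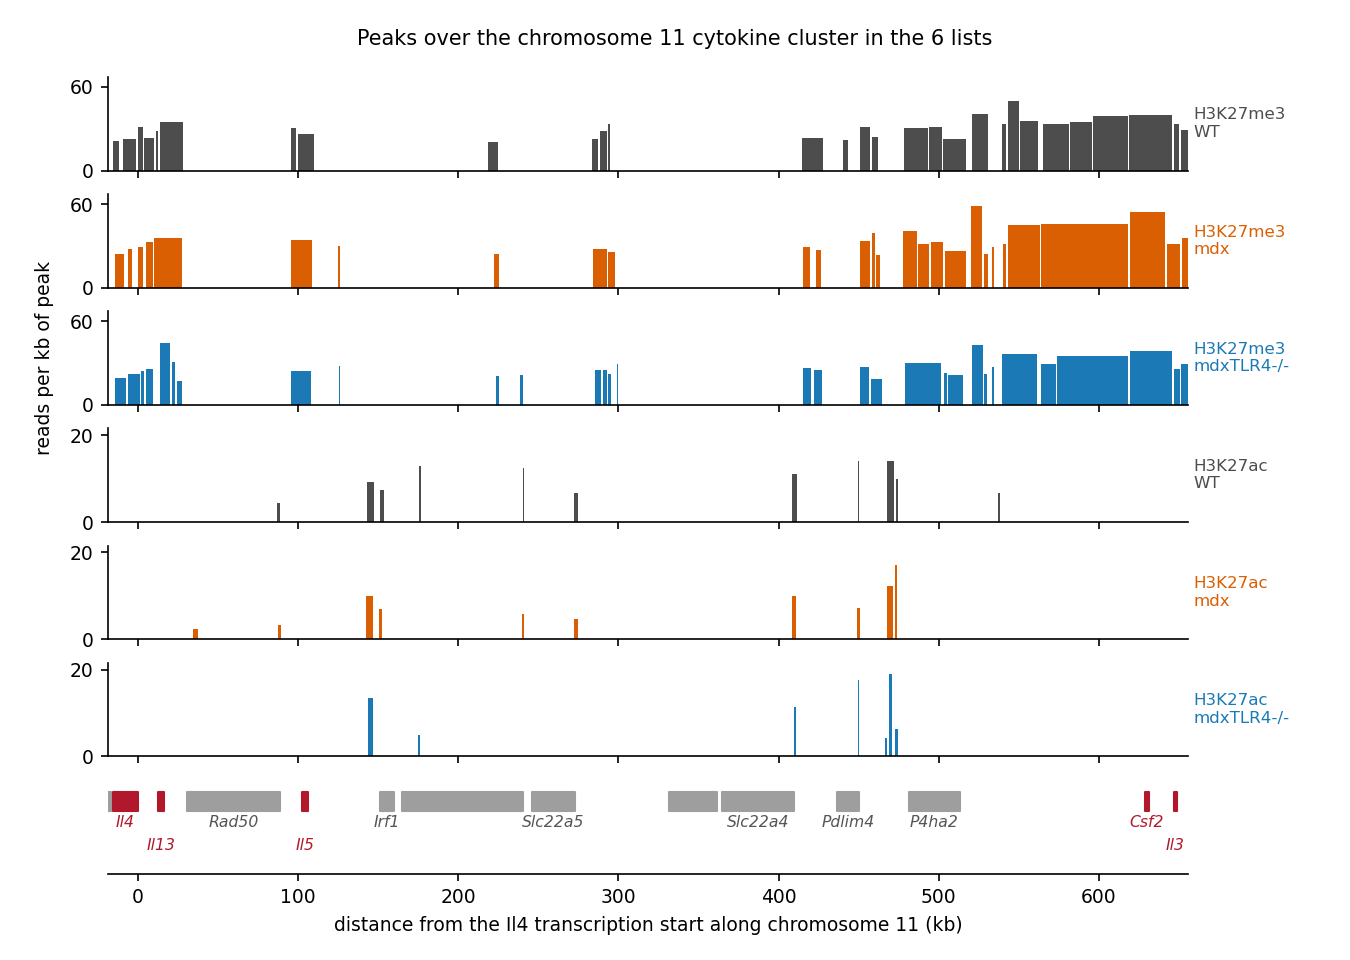
Peaks of the 6 lists over the type 2 cluster. The horizontal axis is the distance in kb from the Il4 start, bar width is the extent of a peak and bar height its reads per kb, with 1 row per mark and genotype and the genes at the bottom (members in red). H3K27me3 stands over Il4, Il13 and Il5 on the left, over Csf2 and Il3 on the right, and over parts of the stretch between, such as P4ha2. No H3K27ac peak lies over a member. The H3K27ac peaks lie between Il5 and Csf2 and, in WT and mdx, also over Rad50 between Il13 and Il5.

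Il4 (chr11:53602982-53618669, minus strand) was covered in pieces. H3K27me3 peaks took 73.2% of its bases in the WT list, 52.0% in mdx and 74.1% in mdxTLR4-/-, counted over the window. In each genotype 4 peaks touched the window, with 500, 432 and 447 reads in all. Only 35.4% of the window lay under a peak in all 3 genotypes, while 94.4% lay under a peak in at least 1, so that Il4 was the marked chromosome 11 gene whose peaks moved most between lists.
The WT list had a peak of 85 reads at the 3′ end of the body (chr11:53603001-53607000) and one of 182 reads (chr11:53609401-53617400). In mdx these were a peak of 141 reads (chr11:53604401-53610200) and one of 77 reads (chr11:53612201-53615000). In mdxTLR4-/- they were a peak of 139 reads (chr11:53604201-53611400) and one of 161 reads (chr11:53612601-53619800), and the last of these ran across the start. The outermost start was bare in WT over 1.6 kb and in mdx over 4 kb, and in both lists the next peak began at the same base, at -332 bp from the start.
That upstream peak (chr11:53619001-53621600) had the same boundaries in WT and mdx, which lets the reads be compared over the same bases. It held 82 reads in WT and 76 in mdx, a ratio of 0.927 (95% interval 0.669 to 1.28). A peak farther upstream (chr11:53623601-53627800) had the same boundaries in mdx and mdxTLR4-/- and held 138 and 108 reads, a ratio of 0.783 (0.603 to 1.01). Over the whole lists, peaks with the same boundaries had a median ratio of 1.18 for mdx over WT (395 peaks) and 0.777 for mdxTLR4-/- over mdx (580 peaks), and the interval of each Il4 peak includes the matching median. The upstream peaks without such a match were one of 151 reads in WT (chr11:53622401-53628800) and one of 39 reads in mdxTLR4-/- (chr11:53620601-53622200).

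**Figure D2:**
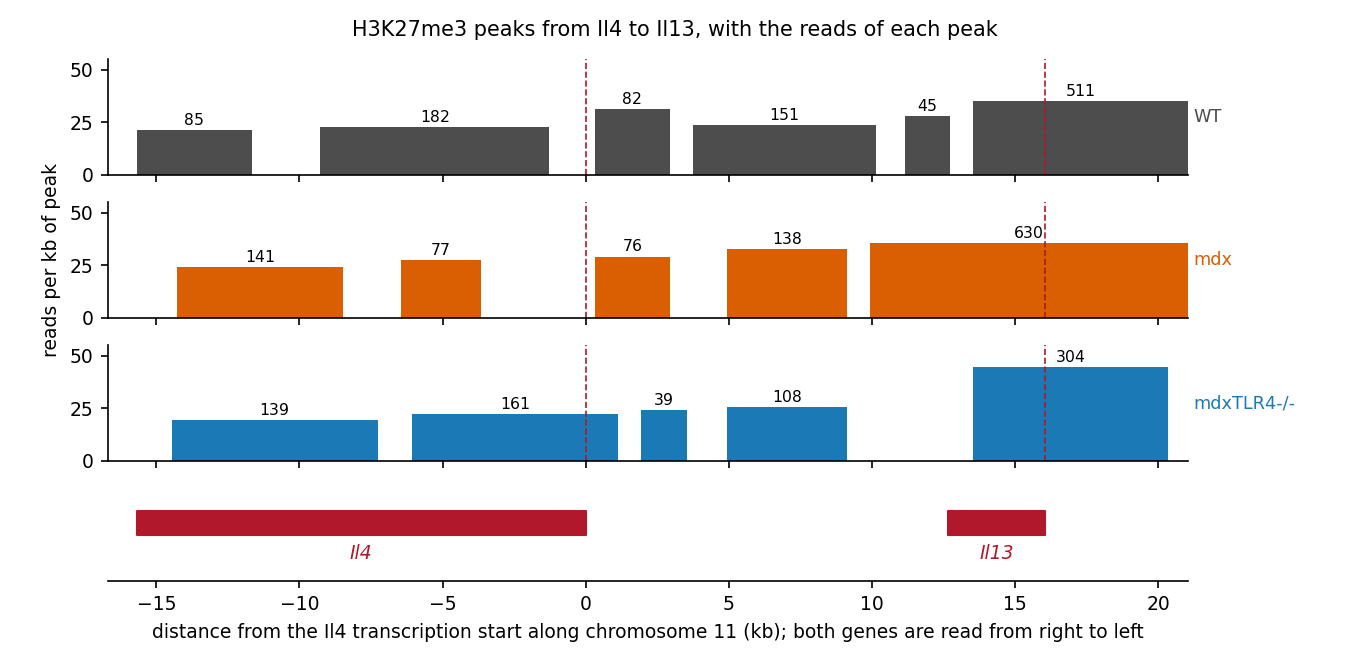
H3K27me3 peaks from Il4 to Il13 by genotype, with distance from the Il4 start in kb on the horizontal axis, reads per kb of peak on the vertical axis and the reads of each peak printed above it. Dashed lines mark the starts of both genes, and peaks that run past the Il13 window are drawn up to its edge. The outermost Il4 start is bare in WT and mdx and lies under the peak of 161 reads in mdxTLR4-/-, and the Il13 start lies under a peak in every genotype.

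Il13 (chr11:53631324-53634702, minus strand), the neighbour of Il4 and coexpressed with it in T helper 2 cells, had its start under a long peak in every genotype. The window was covered by 91.5% in the WT list, by 100% in mdx and by 72.5% in mdxTLR4-/-. The peak over the start held 511 reads in WT (chr11:53632201-53646800), 630 reads in mdx (chr11:53628601-53646200) and 304 reads in mdxTLR4-/- (chr11:53632201-53639000). WT had a further peak of 45 reads at the 3′ end of the gene (chr11:53629801-53631400). The WT and mdxTLR4-/- peaks over the start began at the same base, and the mdxTLR4-/- peak was the shortest of the 3 and the densest, at 44.7 reads per kb against 35.0 in WT and 35.8 in mdx. It ranked at percentile 94.0 of density in its list.
Taken as the ratio of reads per kb over all Il13 peaks, mdxTLR4-/- stood at 1.30 times WT (1.13 to 1.50) before scaling and at 1.47 (1.28 to 1.70) per 1000000 reads in peaks. The WT peak ran past the window, and under that stretch mdxTLR4-/- had separate peaks that did not touch the window. They held 49 reads (chr11:53640201-53641800) and 52 reads (chr11:53643201-53646200), at 30.6 and 17.3 reads per kb. The ratio counts the far stretch in WT and not in mdxTLR4-/-, so it does not show a gain over WT. From Il4 to Il13 as a whole (37.7 kb) the covered share was 79.8%, 70.3% and 71.6%, and no H3K27ac peak lay there in any list.

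Il5 (chr11:53720794-53725106, plus strand) lies on the far side of Rad50 from Il13. Its window was covered by 90.3% in WT and 100% in both other genotypes. WT had a peak of 104 reads upstream (chr11:53714201-53717600) and one of 260 reads over the gene (chr11:53718601-53728400), separated by 1 kb. In mdx the same stretch was 1 peak of 450 reads (chr11:53714201-53727400) and in mdxTLR4-/- 1 peak of 310 reads (chr11:53714201-53727000), all 3 lists starting at the same base. WT had a density of 27.6 reads per kb (24.8 to 30.6), mdx one of 34.1 (31.0 to 37.4) and mdxTLR4-/- one of 24.2 (21.6 to 27.1). The mdx to WT ratio of 1.24 (1.07 to 1.42) became 1.01 (0.878 to 1.16) per 1000000 reads in peaks. The antisense gene Gm12214 overlaps Il5, and the reads of a peak carry no strand, so the mark cannot be given to either gene alone.

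Csf2 (chr11:54247271-54249667, minus strand) and Il3 (chr11:54265303-54267277, minus strand), a pair of growth factor genes that lie side by side, formed the most continuous marked stretch. From Csf2 to Il3 (26.0 kb) H3K27me3 took 92.3% of the bases in WT, 88.5% in mdx and 90.8% in mdxTLR4-/-. Csf2 was the only gene of the 9 with its whole window covered in all 3 genotypes, each time by a single long peak. This peak held 1076 reads in WT over 26.8 kb (chr11:54237601-54264400), 1180 reads in mdx over 21.8 kb (chr11:54238001-54259800) and 1016 reads in mdxTLR4-/- over 26.4 kb (chr11:54237801-54264200). Its density of 40.1, 54.1 and 38.5 reads per kb ranked at percentiles 91.2, 95.7 and 89.5 of the lists. The mdx peak was the shortest of the 3, so these densities are over unlike stretches. Over all peaks from Csf2 to Il3 the density was 34.5, 42.2 and 34.7 reads per kb. The antisense gene Gm12223 lies over Csf2.
Il3 had 74.9%, 82.4% and 71.2% of its window covered. In WT the long Csf2 peak of 1076 reads reached 98 bp into the Il3 window, and its whole count entered the WT density of Il3. In mdx and mdxTLR4-/- the Csf2 peak stopped short of that window. Its start lay under a short peak of 113 reads in WT (chr11:54265401-54268800), 240 reads in mdx (chr11:54261401-54269000) and 92 reads in mdxTLR4-/- (chr11:54265401-54269000). The WT and mdxTLR4-/- peaks began at the same base inside the gene, and the mdx peak began 4 kb nearer to Csf2, where the long Csf2 peak of that list ended earlier. The next peak upstream of Il3, toward Acsl6, held 817 reads in WT (chr11:54269801-54297800), 1004 in mdx (chr11:54270401-54298400) and 363 in mdxTLR4-/- (chr11:54270201-54282600).

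**Figure D3:**
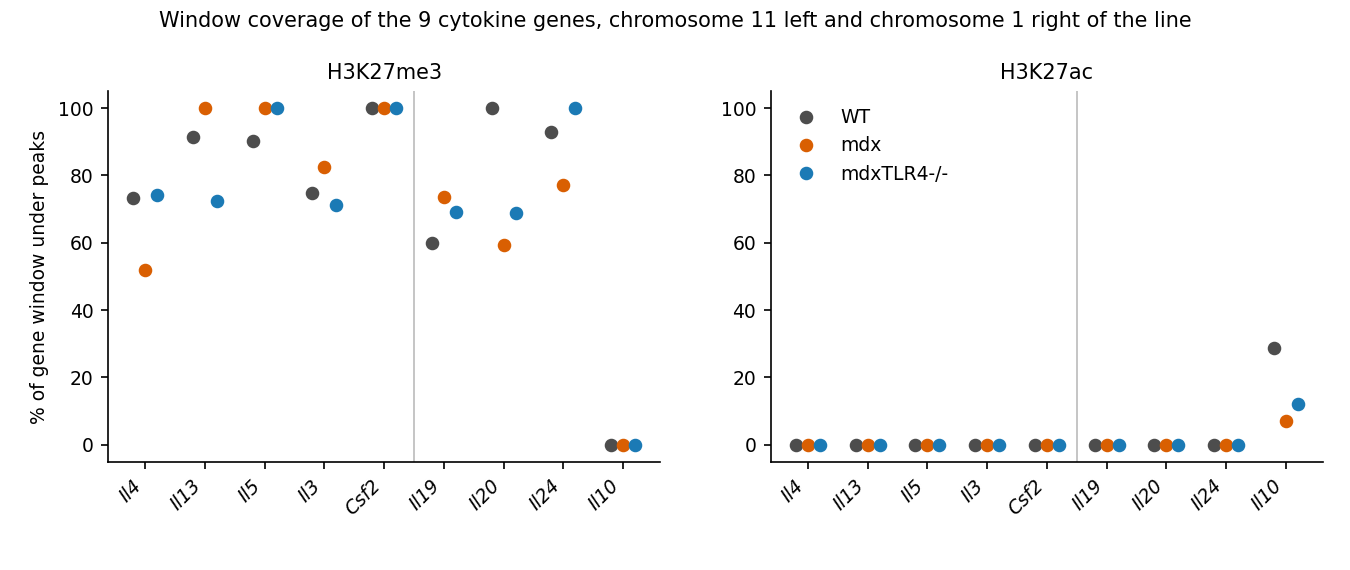
Share of each gene window under H3K27me3 peaks (left) and H3K27ac peaks (right), in percent, for the 9 genes in WT, mdx and mdxTLR4-/-, with 1 point per peak list and so no error bar. For H3K27me3 8 genes lie between 52.0% and 100% and Il10 at 0%, and for H3K27ac only Il10 is above 0%.

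On chromosome 1 the genes stand in the order Il24, Il20, Il19 and Il10, and only the last was free of H3K27me3. Il24 (chr1:130882074-130887454, minus strand) had the densest H3K27me3 peak of all those over a start of the 9 genes in WT and in mdx. WT peaks covered 93.0% of the window, mdx peaks 77.2% and mdxTLR4-/- peaks 100%. One peak over the whole gene (chr1:130877401-130889800) had the same boundaries in WT and mdx, with 646 and 745 reads, or 52.1 and 60.1 reads per kb, at percentiles 97.4 and 97.6 of these lists. The ratio of reads was 1.15 (1.04 to 1.28), which includes the median of 1.18 over the 395 peaks with the same boundaries in both lists. In mdxTLR4-/- a longer peak (chr1:130877601-130895000) held 642 reads at 36.9 reads per kb and reached into the stretch of a second, upstream peak of the other lists, which held 127 reads in WT (chr1:130890601-130896400) and 99 in mdx (chr1:130892401-130896400).

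Il20 (chr1:130906985-130911451, minus strand) was covered whole in WT by a peak of 324 reads (chr1:130904801-130917000). In mdx coverage was 59.4%, with a peak of 99 reads over the 3′ part (chr1:130905601-130908800) and one of 168 reads over the start (chr1:130909601-130913000). In mdxTLR4-/- it was 68.9%, with 1 peak of 249 reads (chr1:130904801-130913200). The Il20 start thus lay under a peak in all 3 lists, and the bases farthest upstream in the window were covered in WT alone. The fall of 40.6 percentage points from WT to mdx stood at percentile 0.739 of such differences over genes with a peak in either list, and that of 31.1 points from WT to mdxTLR4-/- at percentile 3.18.

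Il19 (chr1:130932656-130940115, minus strand) had the lowest WT coverage of the 8 marked genes, at 59.9%, with 73.7% in mdx and 69.2% in mdxTLR4-/-. In WT a bare stretch of 4 kb lay over the start, between a peak of 81 reads in the body (chr1:130933401-130937400) and one of 97 reads upstream (chr1:130941401-130945400). In mdx a peak of 137 reads (chr1:130937601-130943200) and in mdxTLR4-/- one of 111 reads (chr1:130937601-130943800) lay across the start and began at the same base. The remaining peaks lay to either side of the start. WT had one of 114 reads past the gene (chr1:130927801-130932000). In mdx they were one of 97 reads in the body (chr1:130933601-130936800) and one of 152 reads upstream (chr1:130944001-130948600), and in mdxTLR4-/- one of 63 reads in the body (chr1:130934201-130936800) and one of 24 reads upstream (chr1:130944601-130945200). The peaks over the Il19 start were among the weaker ones of their lists, at 24.5 and 17.9 reads per kb (percentiles 26.1 and 13.2). Neither remained when only peaks of at least 1.5 times the 1st percentile of density of the list were kept. The mdxTLR4-/- peak over the Il4 start remained, at 22.4 reads per kb (percentile 41.8). The 1st percentile of that list was 14.1 reads per kb, so the Il4 peak lay close to the limit.
Counted over the 9 genes, the start lay under H3K27me3 at 6 in WT, 7 in mdx and 8 in mdxTLR4-/-, where 23.5%, 23.8% and 22.7% of all protein-coding genes had a covered start.

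**Figure D4:**
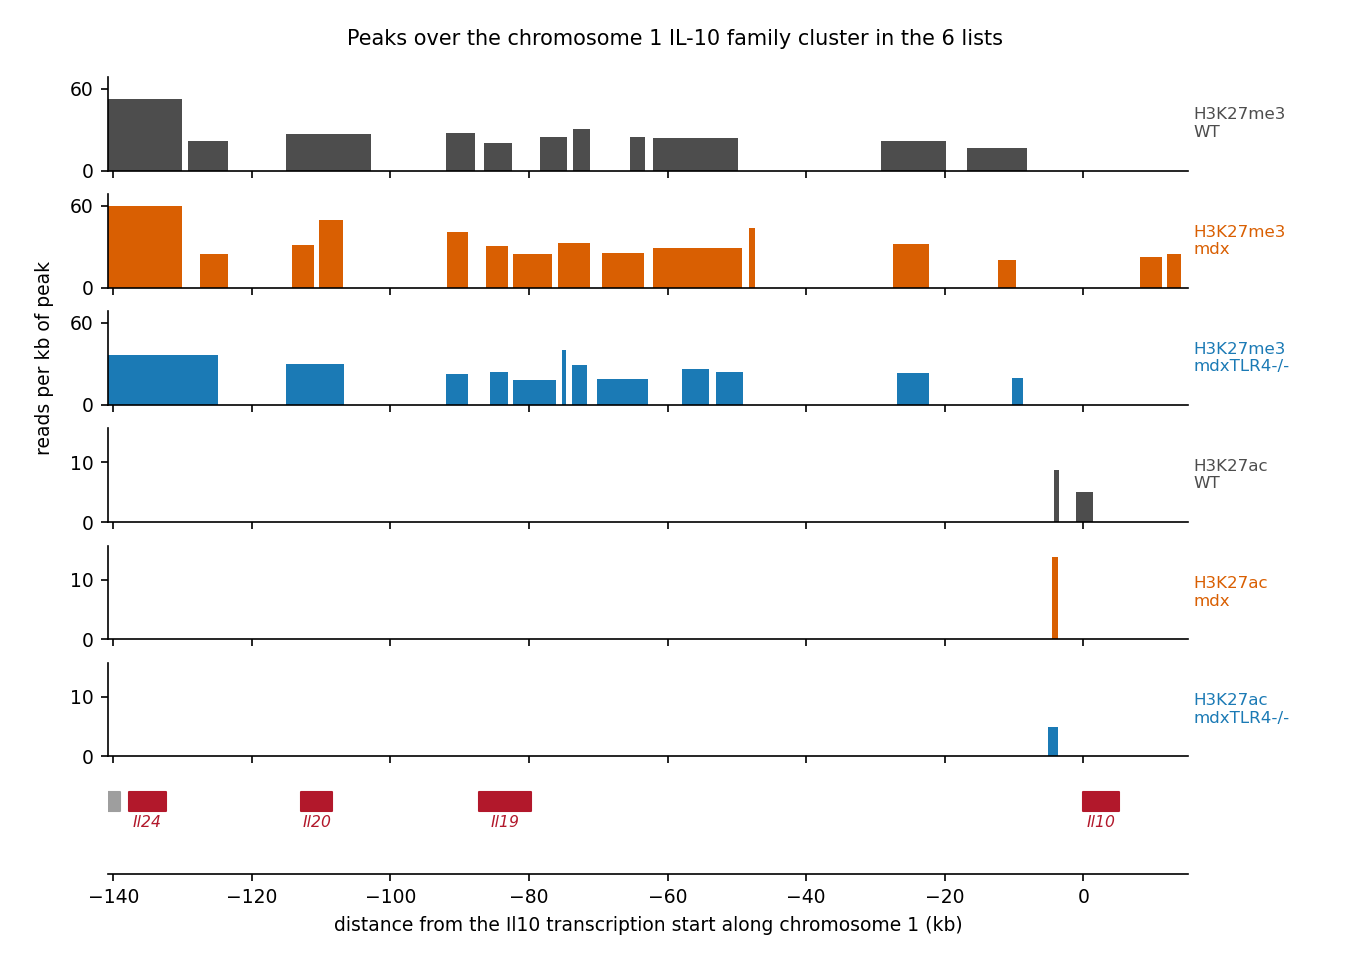
Peaks of the 6 lists over the IL-10 family cluster. The horizontal axis is the distance in kb from the Il10 start, bar width is the extent of a peak and bar height its reads per kb, with the genes at the bottom. H3K27me3 lies over Il24, Il20 and Il19 and stops before Il10, and in mdx alone it appears again past Il10. H3K27ac appears only at and just upstream of Il10.

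Il10 (chr1:131019845-131024974, plus strand) had 0% of its window under H3K27me3 in every genotype. The bases free of the mark around its start ran over 201 kb in WT, 17.8 kb in mdx and 192 kb in mdxTLR4-/-. The mdx list alone held a peak of 72 reads (chr1:131028001-131031200, 3027 bp past the gene) and one of 49 reads (chr1:131032001-131034000), both outside the window. On the upstream side the nearest H3K27me3 ended in all 3 lists between the Il19 and Il10 windows, where 50.6%, 44.3% and 34.0% of the bases were covered.
H3K27ac lay about 4 kb upstream of the Il10 start in each list. This peak held 7 reads in WT (95% interval 2.81 to 14.4; chr1:131015601-131016400), 11 reads in mdx (5.49 to 19.7; chr1:131015401-131016200) and 7 reads in mdxTLR4-/- (chr1:131014801-131016200). All 3 shared 600 bases, from -4244 to -3645 bp relative to the start, and the sequence shown above is the middle of these. A second peak of 12 reads (6.20 to 21.0; chr1:131018801-131021200) lay over the start itself and was listed in WT alone.
With so few reads, and a mdx list with fewer reads in all, a missing peak over the start in mdx and mdxTLR4-/- does not show that the mark was absent there. Only 1 H3K27ac ChIP sample stood behind the mdxTLR4-/- list, and the labels give the H3K27ac input no genotype.

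Across the genotypes the coverage of the 9 windows moved in both directions. Its mean was 75.9% in WT, 71.6% in mdx and 72.9% in mdxTLR4-/-, against 17.6%, 17.4% and 16.0% over all protein-coding genes. Of the 8 marked genes, coverage was lower in mdx than in WT at 3 (Il4, Il20 and Il24), higher at 4 and equal at Csf2, where among all genes with a peak in either list 44.9% were lower and 43.7% higher. It was lower in mdxTLR4-/- than in WT at 3 (Il13, Il3 and Il20), higher at 4 and equal at Csf2, where 59.2% of such genes were lower and 29.7% higher. Both comparisons use the same WT list.

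**Figure D5:**
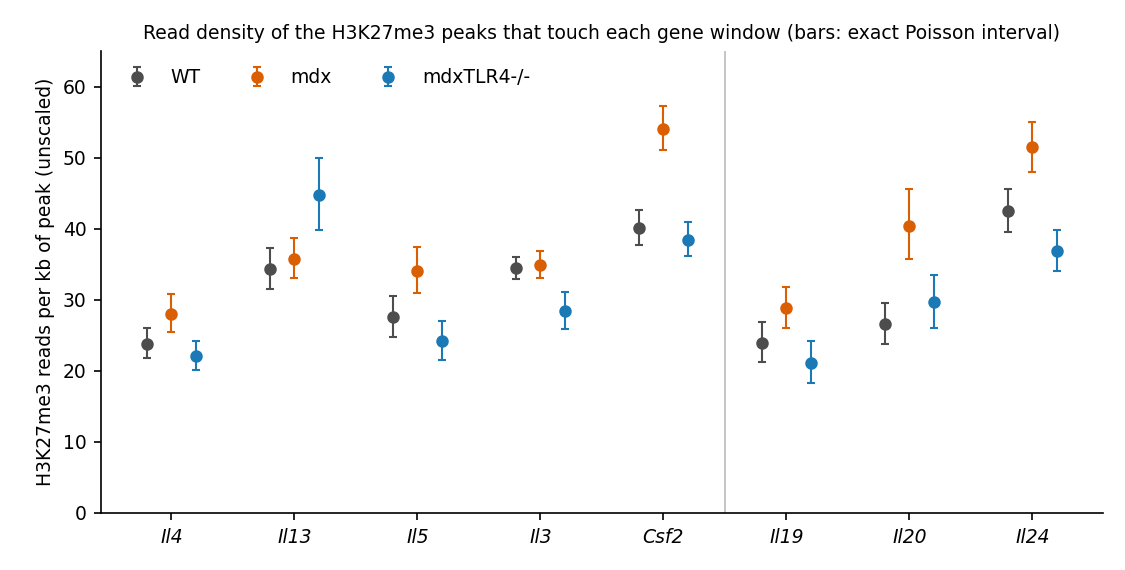
Unscaled H3K27me3 reads per kb, over all peaks that touch the window of each of the 8 marked genes, in WT, mdx and mdxTLR4-/-. Points are the densities and bars the exact 95% Poisson intervals, which cover counting error only. The mdx point is the highest of the 3 at every gene but Il13, where mdxTLR4-/- is the highest at 44.7, and the mdx interval overlaps that of WT at Il4, Il13, Il3 and Il19. The points of a gene can cover unlike stretches. At Il13 the mdxTLR4-/- point leaves out peaks past the window that lie under the WT and mdx peaks. At Il3 the WT point alone counts the long Csf2 peak.

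Read densities over the members' peaks depended on how the lists were scaled. Over the peaks of the chromosome 11 members the mdx to WT density ratio was 1.20 (1.15 to 1.26) unscaled, 0.984 (0.939 to 1.03) per 1000000 reads in peaks and 1.03 (0.988 to 1.08) when each list was divided by its 1st percentile of density, so that its direction depends on the scaling. For mdxTLR4-/- it was 0.976 (0.927 to 1.03), 1.11 (1.05 to 1.16) and 1.07 (1.02 to 1.13). On chromosome 1 the mdx ratio was 1.26 (1.17 to 1.36), 1.03 (0.957 to 1.11) and 1.08 (1.01 to 1.17), and that of mdxTLR4-/- was 0.949 (0.876 to 1.03), 1.07 (0.991 to 1.16) and 1.04 (0.959 to 1.13). The median density of all peaks was 24.5, 28.3 and 23.7 reads per kb in WT, mdx and mdxTLR4-/-. The unscaled densities of both clusters stood in the same order, but those of Il13 and Il20 did not.

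Some of the genes around the clusters were as covered as the members, and others had no H3K27me3. Between the Il5 and Csf2 windows (520 kb) H3K27me3 took 33.0%, 32.1% and 31.5% of the bases, and 10, 8 and 7 H3K27ac peaks lay there. Of 9 chromosome 11 neighbours, 5, 4 and 4 had H3K27me3 in WT, mdx and mdxTLR4-/-, and 5, 5 and 3 had H3K27ac. Among all protein-coding genes 38.4%, 41.3% and 39.0% had H3K27me3, and 39.9%, 34.5% and 36.5% had H3K27ac. Acsl6, which lies next to Il3, had 95.2% of its window under H3K27me3 in WT, and P4ha2 had 89.6%. Irf1, an interferon-induced transcription factor that macrophages express, had none, and its H3K27ac covered 26.4%, 12.4% and 1.30% of the window. The peaks that touched the window held 62, 55 and 35 reads. An upstream peak, only partly inside the window, held 41, 44 and 35 of these. In mdx and mdxTLR4-/- that peak ended at the same base, and only its edge lay in the window. A second peak, over the Irf1 start, held 21 reads in WT (chr11:53769601-53772400) and 11 in mdx (chr11:53769201-53770800). The mdxTLR4-/- list had no peak there, but this list was the thinnest and came from 1 ChIP sample. Rad50, a DNA repair gene whose 3′ part holds the locus control region of the type 2 cytokines in T cells, had no H3K27me3. At that end of Rad50 the mdx list alone held a H3K27ac peak, of 7 reads (2.81 to 14.4; chr11:53653001-53656000), which was picked out after its values were seen.
Of 7 chromosome 1 neighbours, 4 had H3K27me3 and 3 had H3K27ac in each genotype, beside the same shares of all protein-coding genes. Fcmr, the IgM receptor gene of lymphocytes on the Il24 side, had 89.9%, 65.9% and 75.4% of its window under H3K27me3, and the nearby Pigr had 75.1% in WT. Fcamr was marked in every list as well. Mapkapk2, a stress kinase gene next to Il10, had none and carried H3K27ac in every list.

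Receptors for these cytokines, which macrophages need in order to respond to them, were mostly free of the mark the cytokine genes carried, as were most protein-coding genes. Among all protein-coding genes 38.4%, 41.3% and 39.0% had a H3K27me3 peak in WT, mdx and mdxTLR4-/-, and 39.9%, 34.5% and 36.5% a H3K27ac peak. These shares stand beside all counts in this and the next 2 paragraphs. Of 12 receptor genes, 2 had H3K27me3 in each genotype, namely Il22ra1 (100%, 97.9% and 96.6% of the window) and Il20ra (8.60%, 10.1% and 7.85%), both of which encode chains used mainly by epithelial cells. H3K27ac lay at 5 in WT, 7 in mdx and 5 in mdxTLR4-/-. The highest H3K27ac coverage in WT was at Csf2ra, the binding chain of the GM-CSF receptor (59.2%, 36.3% and 24.8%). The IL-10 receptor chain Il10rb followed with 26.5%, 17.1% and 16.4%.
Among 10 genes of the signalling chain below these receptors, 5 had H3K27me3 and 7, 7 and 8 had H3K27ac. Socs1, an inhibitor of JAK kinases, had both, with H3K27me3 over 59.1%, 46.2% and 18.3% of its window. Stat6, which carries the IL-4 signal, had H3K27ac and no H3K27me3. Of 13 transcription factors known to control these cytokine genes, 8, 10 and 9 had H3K27me3 and 9, 8 and 9 had H3K27ac. Maf, an activator of Il10 in macrophages and T cells, had no H3K27me3 and H3K27ac over 26.6%, 21.4% and 22.7% of its window.
Of 7 further cytokines of the same families, 4, 5 and 4 had H3K27me3 and 0, 0 and 1 had H3K27ac. Il9, another type 2 cytokine, was the most covered of them in WT and had 92.8% and 79.4% of its window covered in mdx and mdxTLR4-/-, while Il2 had neither mark in any list.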

How the data were processed

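ChIP-seq of H3K27me3 and H3K27ac was done in BMDM after micrococcal nuclease digestion, in the groups and sample numbers given above. The authors processed the reads with CASAVA 1.8, cutadapt 1.15 and Bowtie2 2.3.4 (mm10), merged the replicates and called peaks with SICER 2.0 in windows of 200 bp with gaps of 600 bp, keeping those at an FDR under 0.01. The deposited lists give for each peak the count of ChIP reads in it. These counts are not scaled for depth and input is not subtracted, so they move with sequencing depth, and the depth of each sample is unknown from peak lists.

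The 6 lists were read with Python 3.11.15, pandas 2.3.3, numpy 2.4.6 and scipy 1.17.1, and sequences with pysam 0.24.0. A peak was assigned to a gene when it touched the gene's window by at least 1 bp, and its whole count was used even where it ran past the window. Coverage is the share of window bases under peaks. Intervals are exact at the 95% level, Poisson for a count and Clopper-Pearson for a ratio of counts. The density of reads was compared as deposited, per 1000000 reads in peaks, and divided by the list's 1st percentile of density. The functions were tested on simulated data. The 9 genes and the lists of related genes were chosen with earlier results of these data known. All 9 genes are named with every peak, and from each list up to 4 genes with the highest or lowest coverage in WT. Gata3, and which of the genes tied at 0 to name, were picked after their values were seen. The values of 1 listed gene are not reported here. One listed gene, Ccni2, was not matched in the annotation. The H3K27ac input has no genotype in its labels and entered no comparison.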

Additional observations from a re-analysis of the deposited data

How the results depend on the processing

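No paired analysis was possible because the replicates were merged before peaks were called, and for the same reason no replicate could be left out. The count of genes with H3K27me3 stayed at 8 in each genotype over the gene body alone, with peaks of at least 2 kb, with the same number of peaks per list, with peaks of at least 1.5 times the 1st percentile of density, and with at least 20% or 50% of the window covered. Mean coverage moved. Over the gene body alone it was 77.9% in WT, 79.3% in mdx and 80.2% in mdxTLR4-/-. With peaks of at least 2 kb it was 74.6% in WT and 71.6% in mdxTLR4-/-. With the same number of peaks per list it stayed at 75.9% in WT and was 64.0% in mdx and 64.1% in mdxTLR4-/-, so that both stood farther below WT. With the stricter density limit it was 64.6%, 64.0% and 64.1%. H3K27ac at Il10 was lost over the gene body alone in mdx and mdxTLR4-/- (0 genes each), since only the upstream peak was listed there. The density ratio against WT reversed for mdx on chromosome 11 per 1000000 reads in peaks (0.984) and was 1.03 relative to the 1st percentile. The mdxTLR4-/- ratios, which were below 1 unscaled, were above 1 under both scalings. For mdxTLR4-/- on chromosome 11 it was 1.11 and 1.07, for mdx on chromosome 1 it was 1.03 and 1.08, and for mdxTLR4-/- on chromosome 1 it was 1.07 and 1.04. The count of covered starts, tried after seeing the data, was 6 in WT, 6 in mdx and 7 in mdxTLR4-/- both under the stricter density limit and with the same number of peaks per list, Il19 being lost in mdx and mdxTLR4-/-. The small H3K27ac counts limit any statement on Il10.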
